A study of Danio rerio with 18 samples.

Results

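The 128-cell zebrafish embryo was examined for which maternal mRNAs sat on polysomes and which did not. Each gene is described by its normalized counts in 3 libraries of that stage, namely polysome-bound, polysome-unbound and unfractionated RNA. A gene was included when its unfractionated value was at least 100 and its bound and unbound values together were at least 100, and 14461 of the 27015 genes in the table met both conditions. The value used throughout is the log2 ratio of the bound over the unbound normalized count, each plus 1, and "higher" or "lower" means at least 2-fold in the bound fraction (a log2 ratio of 1 or more, or of -1 or less).

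All embryos were wild-type, strain AB, with no treatment given in the labels, and the embryos of a stage were pooled. The series holds 18 libraries, 1 for each of 3 fractions at the egg, 1-cell, 16-cell, 128-cell, 3.5 hpf and 5.3 hpf stages (hpf, hours post fertilization), and ribosomal RNA had been depleted. With 1 library per fraction there is no replicate, so the ratios at 128-cell carry no p-value. Intervals in brackets are exact 95% binomial (Clopper-Pearson) intervals on the reads of a gene, and they cover counting error only.

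In a cleaving fish embryo the nuclei transcribe very little, and proteins are made from mRNAs that the mother loaded into the egg. An mRNA that carries several ribosomes sediments as a polysome, while free, stored or repressed mRNA stays in the lighter fractions. In early embryos a long poly(A) tail is known to favour ribosome loading, and loading changes as tails are lengthened or shortened. The 128-cell stage lies before the main wave of genome activation at the midblastula transition.

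Reads assigned to transcripts at 128-cell were 51.4 M in the bound, 71.6 M in the unbound and 41.1 M in the unfractionated library. The median half-width of the counting interval was 0.50 log2 units for the 512 genes with a bound plus unbound value of 100 to 200, and 0.04 for the 3148 genes at 10000 or more. The earliest zygotic genes, on a list of textbook examples, had a median unfractionated value of 58.0, against 2899 at 5.3 hpf, and 21 of the 67 in the table met the rule. Markers of tissues of the mother had median values of 7.02 for liver, 11.3 for blood, 30.7 for ovarian follicle cells and 35 for skeletal muscle, and liver had no member. The follicle genes with the highest unfractionated values were those of the steroid enzymes CYP17A1 (4837) and CYP11A1 (4412), and inha and 1 of the genes carrying the symbol INHBB (ENSDARG00000103892.1) were at 0. The part of maternal tissue in the ratios was not tested.

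The ratios ranged from -4.99 to 11.70, with a median of 0.04 and quartiles of -0.88 and 1.00. The value of 11.70 belongs to srsf3a, 1 of 2 members listed at 0 in the unbound library. In the bound fraction 3606 of the 14461 genes (24.9%) were higher, and 3230 (22.3%) were lower. At 4-fold the counts were 1156 and 849, and at 8-fold 253 and 82. The counting interval lay wholly past 2-fold for 5867 genes. In pooled embryos, fewer cells of a type and less RNA per cell cannot be told apart. The split depends on scaling: with equal library totals 1853 genes were higher and 5465 lower, and with the 4 control-like entries of the transcript files as reference 834 and 8066, because the median moved from 0.04 to -0.58 and -1.21. Of the 17 lists with a median above 0, 7 fell below 0 with equal library totals and 13 with the control-like entries, and those of the spliceosome, SR and hnRNP proteins, histones, and cohesin and condensin stayed above 0 under both. The order of genes is not touched by such a shift, and each group below is read against the median and the 24.9% and 22.3% of all genes.

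**Figure D1:**
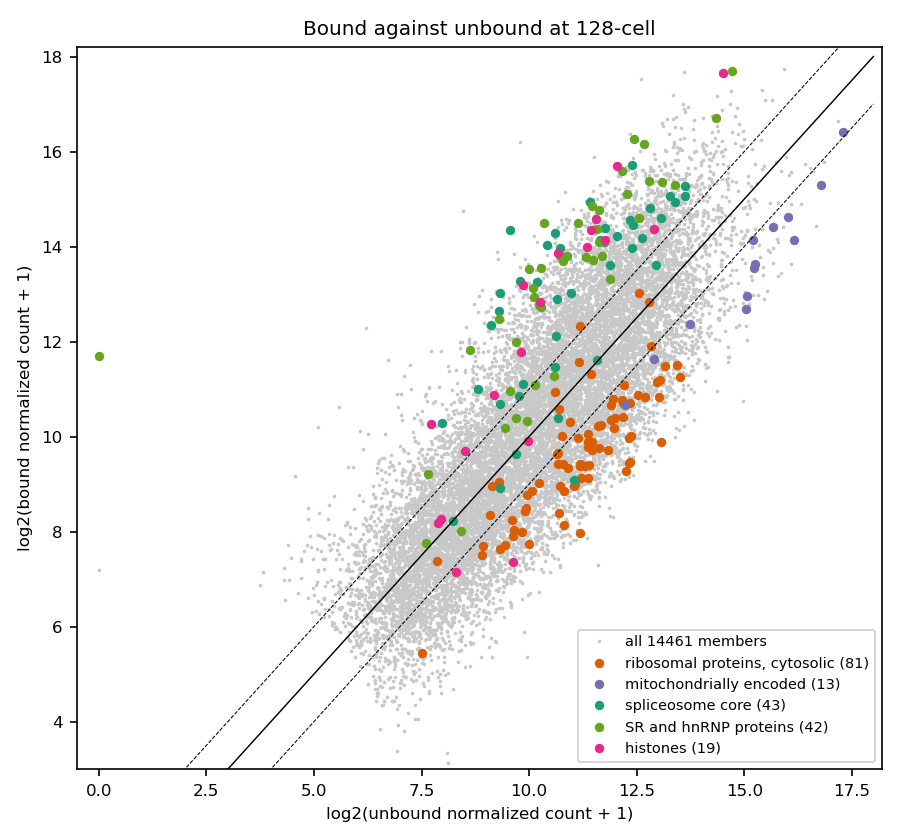
Bound against unbound log2 normalized counts (plus 1) of the 14461 genes at 128-cell, 1 library per fraction, with 5 gene groups in colour. The solid line marks equal values and the dashed lines 2-fold; ribosomal protein and mitochondrially encoded mRNAs lie mostly below the lines, spliceosome, SR and hnRNP and histone mRNAs mostly above.

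mRNAs for splicing lay on the bound side. Of 42 SR and hnRNP proteins, RNA-binding regulators of splicing, 35 were higher and 0 lower, with a median log2 ratio of 2.57. Of 43 spliceosome core mRNAs, 35 were higher and 1 lower, with a median of 2.04. At the egg stage the medians of the same genes were 2.48 and 1.68.

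A pair of genes carries the symbol SNRPD3, an Sm protein of the spliceosomal snRNPs. The first (ENSDARG00000013800.6) had 20865 bound, 746 unbound and 2784 unfractionated normalized counts, a 27.9-fold ratio (log2 4.80 [4.72, 4.89]). The second (ENSDARG00000076283.3) had 8346 bound, 640 unbound and 1414 unfractionated counts (3.70). Both stood far above 2-fold, and reads could be shared between them. hnrnpr, an hnRNP protein, had 23144 bound, 1290 unbound and 4172 unfractionated counts (4.16). HNRNPAB was among the 6 highest genes of the bound library, at 213062 bound, 26920 unbound and 55467 unfractionated (2.98).

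The exceptions in these groups were few, with 7 members of each within 2-fold. SNRPF, another Sm protein, was the 1 spliceosome mRNA that was lower, with 541 bound and 2098 unbound counts (-1.95). LSM6, of the U6-associated Lsm ring, had 484 and 638 (-0.40). The lowest SR and hnRNP ratios were those of hnrnph3 (258 bound, 343 unbound, -0.41) and SRSF7 (217 and 193, 0.16). srsf3a, a splicing regulator, had 3331 bound and 273 unfractionated counts and was listed at 0 in the unbound library, so no fold is given, and the value at 0 may be a failed estimate.

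Outside these lists, further RNA-binding protein genes met the naming rule for the 12 largest ratios. tia1 (36099 bound, 1838 unbound and 5176 unfractionated counts) encodes a stress granule protein, and its ratio was 4.30. khdrbs1a, an RNA-binding protein of the STAR family, reached 209815 bound against 12474 unbound counts (4.07). ewsr1b had 31730 and 1619 (4.29). The ratios at egg, 1-cell and 16-cell for tia1 were 3.68, 3.16 and 4.49, so the value at 128-cell lies within the span of earlier ones.

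The largest ratio among genes meeting the naming rule was that of AKAP6, whose mammalian counterpart anchors protein kinase A. AKAP6 (ENSDARG00000077295.5) had 75498 bound, 888 unbound and 41877 unfractionated counts, an 84.9-fold ratio (6.41 [6.33, 6.49]). ctsla, a cathepsin L protease, had 189495 bound, 6184 unbound and 25286 unfractionated counts (4.94). For ctsla the bound value was far above the unfractionated one, whereas for AKAP6 it was less than 2-fold above. The AKAP6 ratio was 6.15 in the egg, 5.15 at 16-cell, -7.16 at 3.5 hpf and -0.41 at 5.3 hpf, so it was below 0 at both later stages. Its unfractionated value was 41877 at 128-cell and 53552 at 3.5 hpf, so the ratio changed side at a similar level. Whether a failed estimate in 1 of the libraries lies behind this was not tested.

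Chromatin protein mRNAs differed by group. Of 19 histone mRNAs 14 were higher and 2 lower, with a median of 2.38. For the same genes the median was 0.67 in the egg, 0.21 at 1-cell and already 2.13 at 16-cell. h1m, the maternal linker histone, had 205798 bound, 23229 unbound and 46419 unfractionated counts (3.15). The core histone gene h2af1al had 53129, 4223 and 10060 (3.65). hist2h3c had 9285 bound and 929 unbound counts, and its ratio was 1.31 in the egg, 2.54 at 16-cell and 3.32 at 128-cell. Between 16-cell and 128-cell the unfractionated value went from 2908 to 10060 for h2af1al and from 661 to 2144 for hist2h3c. The lower members were H2BK1 (162 bound, 791 unbound) and MACROH2A1 (142 and 315), both at low levels. Histone genes share sequence, so reads could be split among copies, and replication-dependent histone mRNAs end without a poly(A) tail, which ribosomal RNA depletion keeps in the libraries.

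HMG proteins, which bend or loosen DNA, had 7 of 13 members higher and 2 lower, with a median of 1.09 that became -0.16 with the control-like entries. HMGB2 had 60583 bound, 2934 unbound and 7721 unfractionated counts (4.37) and hmgb1b 7972, 458 and 1171 (4.12). Of 25 cohesin and condensin mRNAs, the ring complexes that hold and compact chromosomes, 15 were higher and 1 lower (median 1.39). rad21a, the cohesin kleisin, had 52604 bound and 4898 unbound counts (3.42), and the condensin subunit SMC4 85226 and 9699 (3.14). The lower one was rad21l1, a meiotic kleisin in mammals, at 393 and 1407 (-1.84). Of 81 chromatin regulators, 30 were higher and 15 lower (median 0.51). CBX5, a heterochromatin protein, had 45541 and 4282 counts (3.41). DNMT1, the maintenance DNA methyltransferase, had 218667 bound counts, among the 6 highest of that library, beside 62303 unbound and 71627 unfractionated counts (1.81).

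Nuclear pore and transport mRNAs had 24 of 52 members higher and 3 lower (median 0.82). NUP35, a nucleoporin, had 24053 bound and 1721 unbound counts (3.80). RCC1, the exchange factor for Ran, had 93194 and 10816 (3.11), and the nuclear lamin LMNB1 116009 and 12516 (3.21). RANGAP1 is the GTPase activator that acts opposite RCC1 on Ran, and 2 members carry this symbol. The one with the lower ratio (ENSDARG00000041317.5) was on the other side, at 407 and 1909 (-2.23). The other is not given here. DEAD and DEAH box RNA helicases had 23 of 49 members higher and 10 lower (median 0.69), from ddx10 at 3.78 (12116 bound, 879 unbound) to DDX49 at -3.55 (321 and 3768).

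**Figure D2:**
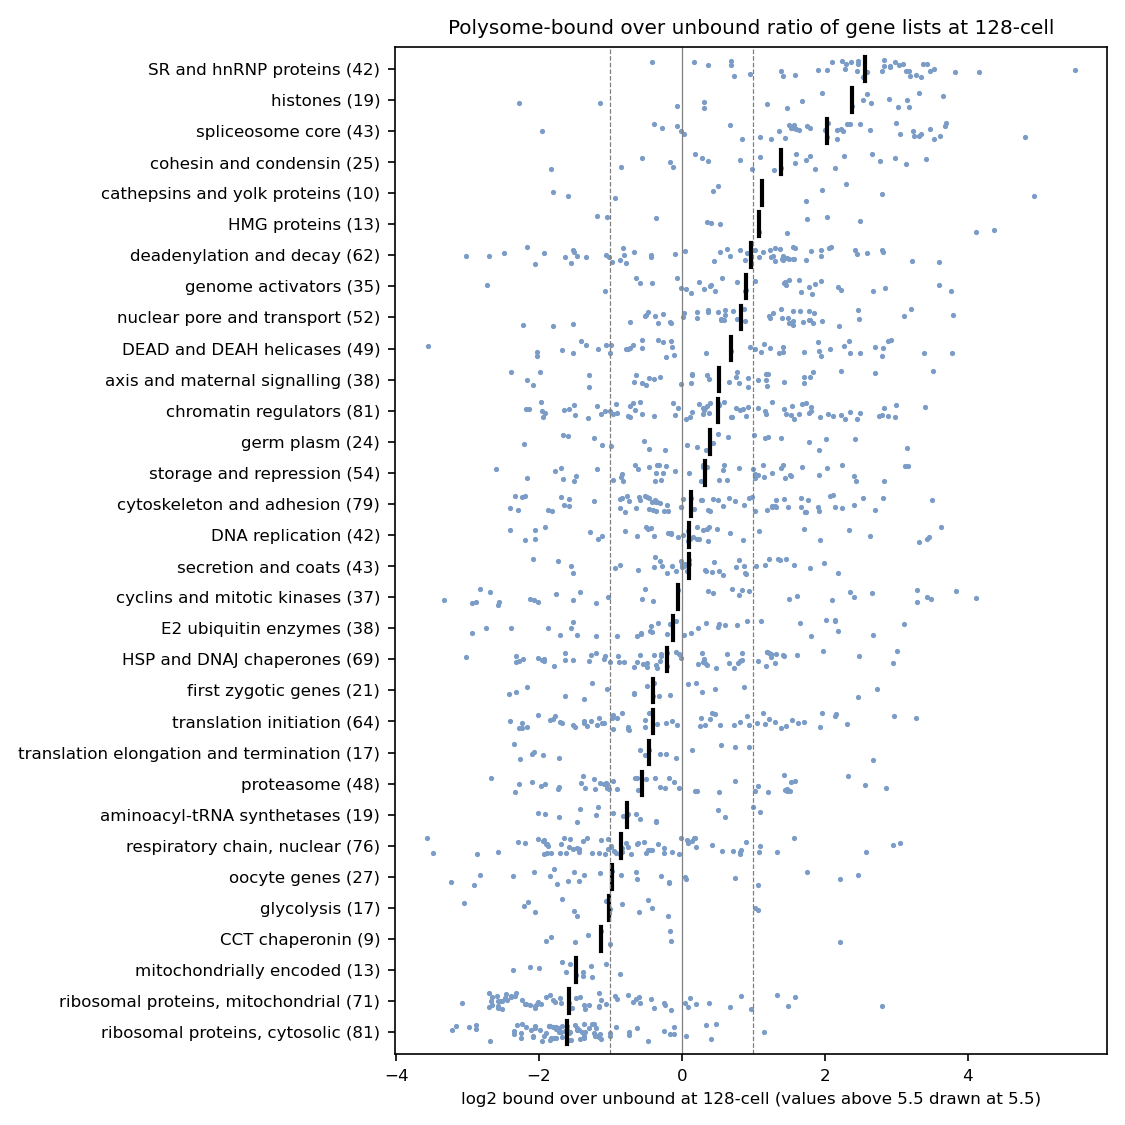
Log2 bound over unbound ratio at 128-cell for the members of 32 gene groups with at least 9 members (numbers in brackets), 1 point per gene and a black bar at the median; dashed lines mark 2-fold. SR and hnRNP proteins lie at the top with a median of 2.57 and cytosolic ribosomal proteins at the bottom with -1.61.

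Cell cycle mRNAs were found on both sides. Of 37 cyclins, mitotic kinases and their regulators, 12 were higher and 15 lower, with a median of -0.05. The cyclins CCNB1, CCNB2, CCNA1, CCNA2 and CCNE1 had ratios of 3.83, 3.44, 3.30, 3.30 and 3.49. CCNB1, the main mitotic cyclin, had 148941 bound, 10438 unbound and 42429 unfractionated counts. The separase inhibitor pttg1 (securin) had 19050, 1098 and 2977, a ratio of 4.12. Separase itself, espl1, was at 2.66 and the APC/C activator CDC20 at 2.35. Mitotic cyclins and securin are known to be destroyed at each mitosis, and a link of this to the ratios was not tested.

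Other mRNAs of the list, kinases among them, were lower. CDK1, the partner of cyclin B, had a ratio of -2.69, AURKB of -2.58, PLK4 of -2.07 and the meiotic kinase MOS of -2.83. aurka, the spindle pole kinase, had 3282 bound, 25202 unbound and 20451 unfractionated counts (-2.94). cdca9, a chromosomal passenger subunit, had 1128, 11368 and 8014 (-3.33), and the passenger BIRC5 had -2.89. plk1 had 21285 bound and 43452 unbound counts (-1.03). The genes of this paragraph other than aurka, cdca9 and plk1, and of the one before it other than CCNB1 and pttg1, were chosen after their values were seen.

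DNA replication mRNAs, 42 in number, had 9 higher and 8 lower members (median 0.10). The helicase subunit MCM7 had 24146 bound and 1952 unbound counts (3.63), and POLE2, of DNA polymerase epsilon, 3727 and 336 (3.47). GMNN, geminin, an inhibitor of re-licensing that is degraded in mitosis, had 98096 bound, 30001 unbound and 32690 unfractionated counts (1.71). TOP2A, which untangles chromosomes, had 10732, 56795 and 36983 (-2.40), and the helicase cofactor GINS2 697, 3187 and 3233 (-2.19).

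Among 35 factors known for, or proposed in, the opening of the zygotic genome, 17 were higher and 2 lower. Their median was 0.90, against 0.42 in the egg and 0.83 at 16-cell. The 128-cell median became 0.29 with equal library totals and -0.34 with the control-like entries. nanog had 95633 bound, 21062 unbound and 29096 unfractionated counts (2.18). The other factors of the known zebrafish trio, pou5f3 and sox19b, chosen after their values were seen, had ratios of 1.95 and 1.43. NFYC and NFYB, subunits of the CCAAT-binding factor NF-Y, had the highest ratios, 3.78 (28245 bound, 2062 unbound) and 3.60 (6353 and 524). The lower genes were SP4 (1066 and 2246, -1.07) and foxr1 (50.6 and 342, -2.73). foxr1 was low in level and had a ratio of 2.84 in the egg.

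Maternal signalling and axis mRNAs had 13 of 38 members higher and 6 lower (median 0.52). Both beta-catenin genes were polysome-rich: ctnnb2 had 42154 bound and 3667 unbound counts (3.52) and CTNNB1 34960 and 5367 (2.70). sybu, syntabulin, which links dorsal determinants to microtubules at the vegetal pole of the egg, had 2649 bound, 13909 unbound and 14392 unfractionated counts (-2.39). hwa, the huluwa dorsal determinant, chosen after its value was seen, was at -1.29. On a separate list of 79 cytoskeleton and adhesion mRNAs, 26 were higher and 12 lower (median 0.13). Its highest ratio was that of cdh1, E-cadherin of the blastomere membrane, with 98813 bound and 8756 unbound counts (3.50). The lowest was that of the cytoplasmic actin actb1, with 11116 and 58712 (-2.40).

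mRNAs for the control of maternal mRNA had members at both ends. The 62 members that encode deadenylases and decay factors had 31 higher and 14 lower genes (median 0.96). CNOT8, a deadenylase subunit, had 42745 bound and 3507 unbound counts (3.61), while BTG4, an adaptor of the same deadenylase complex that is known from the egg, had 4197 bound, 34099 unbound and 23343 unfractionated counts (-3.02 [-3.07, -2.97]). Of 54 storage and repression mRNAs, 20 were higher and 8 lower (median 0.33). elavl1a, an RNA-stabilizing protein, had 30979 and 3557 counts (3.12), and LARP7, which binds 7SK RNA, 22303 and 2474 (3.17). ZAR1L, a binder of stored mRNAs, had 2013 bound and 12259 unbound counts (-2.61), and TENT2, a cytoplasmic poly(A) polymerase, 1327 and 5950 (-2.16). PABPC1L, the embryonic poly(A)-binding protein, chosen after its value was seen, was at -1.78.

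Germ plasm mRNAs, which mark the future germ cells, had 9 of 24 members higher and 5 lower (median 0.39). The highest ratios of this list were those of h1m (3.15), also counted among the histones, and 1 of 2 members with the symbol hook2. That hook2 gene (ENSDARG00000039309.6) had 3668 bound and 685 unbound counts (2.42). TDRD7 was among the lowest, at 118 and 375 (-1.66). Among genes chosen after their values were seen, TDRD6 was at 2.01, DDX4 (vasa) at 1.92 and NANOS3 at -1.11. buc, the organizer of the Balbiani body in the oocyte, had 18267 bound, 55214 unbound and 44967 unfractionated counts (-1.60), and ca15b 3776, 17520 and 16268 (-2.21). Of 27 oocyte genes 4 were higher and 13 lower (median -0.98). bmp15, an oocyte growth factor, had 1167, 10936 and 7997 counts (-3.23), LHX8, an oocyte homeobox gene, 423, 3177 and 2431 (-2.90), and org 4524, 15624 and 14813 (-1.79). At the other end of the oocyte list lay CYP26A1 (3967 bound, 717 unbound, 2.47) and figla (1231 and 265, 2.21). CYP26A1 is also on the list of earliest zygotic genes.

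mRNAs of the ribosome itself lay on the unbound side. Of 81 cytosolic ribosomal protein mRNAs, 1 was higher and 67 lower, with a median of -1.61, a lowest value of -3.22 and a highest of 1.14. rplp2, an acidic protein of the ribosomal stalk, had 250 bound, 2338 unbound and 1810 unfractionated counts (-3.22). RPL19 had 951, 8507 and 6894 (-3.16), and RPS2, the ribosomal protein mRNA with the highest unfractionated value, 2431, 11614 and 9762 (-2.26). RPL15 was the exception, at 5143 bound and 2326 unbound counts (1.14, and -0.10 with the control-like entries). For the 19 ribosomal protein mRNAs that could be joined to 1 transcript, the median level was 232 TPM unfractionated, 33.6 TPM bound and 231 TPM unbound.

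The 71 mitochondrial ribosomal protein mRNAs are encoded in the nucleus, and 4 were higher and 47 lower, with a median of -1.59. MRPL46 had 373 bound and 3156 unbound counts (-3.08), and MRPL12 1091, 6076 and 12135 unfractionated (-2.48). MRPS30 was an exception, at 6630 bound and 952 unbound counts (2.80), and its ratio was 3.76 in the egg.

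Of the 13 mRNAs of the mitochondrial genome, which are translated by mitochondrial ribosomes, 12 were lower and 0 higher, with a median of -1.49. In the egg the median of these genes was -0.03, and at 1-cell and 16-cell it was -0.55 and -0.59. MT-ND2, a complex I subunit, had 6569 bound, 33756 unbound and 26032 unfractionated counts (-2.36). MT-CO1, a complex IV subunit, was the 1 that stayed within 2-fold and had the highest unbound value of all members, 159753, beside 87473 bound and 204359 unfractionated counts (-0.87).

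Respiratory chain and ATP synthase mRNAs of nuclear origin had 7 of 76 members higher and 33 lower (median -0.86, against -0.15 in the egg). ATP5F1B, the catalytic subunit of ATP synthase, had 6801 bound and 26200 unbound counts (-1.95), and ATP5PB of its stator 1293 and 14489 (-3.48). ndufc2 and NDUFA4 were at the other end, at 3.05 (3736 bound, 450 unbound) and 2.95 (7238 and 933). Glycolytic enzymes had 2 of 17 members higher and 10 lower (median -1.02). ENO3, an enolase, had 3030 and 25196 counts (-3.06) and GAPDH 3701 and 15392 (-2.06). The higher genes, PFKL and PFKP (1.03 and 1.06), encode phosphofructokinase and came to -0.22 and -0.18 with the control-like entries.

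Protein folding and turnover groups were mixed or low. Of 9 subunits of the CCT chaperonin, which folds actin and tubulin, 1 was higher and 6 lower (median -1.14). CCT8 was the higher one, at 22433 bound and 4815 unbound counts (2.22), whereas CCT6B had 3598 and 13456 (-1.90). Of 48 proteasome mRNAs 13 were higher and 19 lower (median -0.56), from PSMC3 at 2.86 (15710 and 2161) to PSMD10 at -2.67 (425 and 2717). Of 69 HSP and DNAJ chaperones 16 were higher and 19 lower (median -0.21). HSP90AB1, the cytosolic HSP90, had 22213 bound and 104109 unbound counts (-2.23), while dnajb1b, a cochaperone of HSP70, had 39008 and 4851 (3.01). The 38 E2 ubiquitin enzymes had 9 members on each side (median -0.13).

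Within the translation machinery, initiation factor mRNAs lay on both sides, while elongation factors and tRNA synthetases had few higher members. Of 64 initiation factor mRNAs 17 were higher and 21 lower (median -0.41). The helicase eif4a1a had 92500 bound, 11766 unbound and 25733 unfractionated counts (2.97), and EIF4A3, of the exon junction complex, 25577, 2646 and 6169 (3.27). EIF2S2, the beta subunit of eIF2, was at -2.28 (1806 bound, 8775 unbound). Of 17 elongation and termination factors 1 was higher and 6 lower (median -0.46), with EEF1G at -2.35 (3526 and 17936) and eef2b at -1.72 (15089 and 49692). Of 19 aminoacyl-tRNA synthetases 1 was higher and 7 lower (median -0.77), and the higher one, CARS1 with 4848 bound and 2263 unbound counts, came to a ratio of -0.15 with the control-like entries. Secretory coat and translocation mRNAs were mostly within 2-fold, with 10 higher and 4 lower of 43 (median 0.10).

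Among single genes with the lowest ratios, spata6l had 1726 bound, 32018 unbound and 29310 unfractionated counts, an 18.5-fold difference (-4.21 [-4.29, -4.14]). The egf-family ligand genes hbegfa (717, 7669 and 4002) and HBEGF (156, 1694 and 1082) had ratios of -3.42 and -3.44, and -0.33 and 0.08 in the egg. The nucleolar protein gene surf6 was at -3.40 (1021 bound, 10762 unbound). For each of these 4 genes the unfractionated value lay between the fractions and, on the log2 scale, nearer to the unbound one.

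Transcript length was examined as a feature that the rule did not use. Of the members, 3594 could be joined to a single transcript by matching reads across all libraries. Across these genes the ratio had a Spearman rho of 0.07 with transcript length, a description only, since all genes share the same libraries. The median ratio was 0.27 for 356 transcripts under 750 bases, -0.15 for 610 of 1000 to 1500 bases and 0.62 for 163 of 6000 bases or more. The share of lower genes was 24.4% in the shortest class, 28.3% at 750 to 1000 bases, 27.4% at 1000 to 1500 and 7.98% in the longest. The share of higher genes was 39.6% in the shortest class, 25.4% in the next and 30.7% in the longest. Among transcripts under 1000 bases, 7 histones had a median of 2.65 and 11 spliceosome mRNAs one of 1.36, against -1.72 for 17 cytosolic and -2.03 for 19 mitochondrial ribosomal proteins, so groups of short mRNAs stood at both ends. Assembled loci without an Ensembl identifier had a median of 0.18 (664 members), near that of the Ensembl genes (0.03).

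The unfractionated library served as a reference for both fractions. Its value lay between the bound and unbound values for 8687 genes (60.1%), above both for 3061 and below both for 2713. Among the 3606 higher genes it lay between for 87.7%, among the 3230 lower genes for 74.4%, and among the 7625 within 2-fold for 40.9%. The classes were defined by the gap between the same bound and unbound values. These shares and the medians that follow are therefore partly fixed in advance. The median log2 ratio of bound over unfractionated was 1.28 for the higher genes and -1.40 for the lower ones, while that of unbound over unfractionated was -0.46 and 0.25. On these medians the unfractionated values were closer to the unbound library for both kinds of gene.

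The 128-cell ratios were then set beside those of the other stages, which come from other libraries. At 16-cell, 74.9% of the genes higher at 128-cell were also higher (74.3% of those higher at 16-cell), and 66.2% of the lower ones were also lower (72.8%). In the egg the shares were 56.2% (58.6% of those of the egg) and 42.3% (51.1%). At 3.5 hpf they were 39.4% (53%) and 47.8% (43.6%), and at 5.3 hpf 23.8% (56.4%) and 26.9% (35.1%). These shares depend on how many of the 14461 genes were past 2-fold at each stage. Higher and lower genes numbered 3635 and 2937 at 16-cell and 3459 and 2673 in the egg. At 3.5 hpf they numbered 2679 and 3544, and at 5.3 hpf 1524 and 2479. Of the 3606 genes higher at 128-cell, 359 were higher at all 6 stages, and of the 3230 lower ones 141 were lower at all 6. The rank correlation with the 128-cell ratio was 0.83 at 16-cell, 0.57 in the egg and 0.32 at 5.3 hpf over the 14461 genes, as a description.

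To ask which ratios were particular to the stage, the 128-cell ratio was tested against the mean ratio of egg, 1-cell and 16-cell with limma, in which the spread comes from the 3 earlier stages and the lone 128-cell ratio is assumed to vary like them. Of 22250 genes tested, 1 had a higher ratio (0.00449%) and 0 a lower one at a Benjamini-Hochberg adjusted p of 0.05, and none of them is a member. An unadjusted p under 0.05 was reached by 1830 of the 22250 genes. With edgeR, 0 of 40554 single transcripts were called, and 1756 of the 40554 had an unadjusted p under 0.05, a smaller share. The 16-cell ratios decide the limma count, which was the same with egg or 1-cell left out instead. Without 16-cell, when the spread comes from egg and 1-cell alone (1 residual degree of freedom), 1647 genes (7.53%) had a higher and 1658 (7.58%) a lower ratio. Among the 14461 members these were 1614 (11.2%) and 1635 (11.3%). The values that follow are from the fit without 16-cell. They set 128-cell against egg and 1-cell only, so they cannot show that a ratio is particular to 128-cell. Each gene's adjusted p in the limma fit with 16-cell included was 0.604 or more.

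Without 16-cell, lower ratios at 128-cell were the more frequent calls among cell cycle, mitochondrial and oocyte mRNAs. Over all members 11.2% had a higher and 11.3% a lower ratio. Of 37 cyclins, mitotic kinases and regulators, 1 had a higher and 15 a lower ratio (2.70% and 40.5%). Of 27 oocyte genes 1 and 7 did (3.70% and 25.9%). Of 13 mitochondrially encoded mRNAs 0 were higher and 9 lower (69.2%). Of 76 nuclear respiratory chain mRNAs 0 and 16 were (21.1%), and of 71 mitochondrial ribosomal protein mRNAs 0 and 10 (14.1%, near the 11.3% of all members). Glycolysis had 2 and 4 of 17 (11.8% and 23.5%), and E2 ubiquitin enzymes 6 and 9 of 38 (15.8% and 23.7%). Cytosolic ribosomal protein mRNAs, low at every cleavage stage, had 2 higher and 0 lower of 81 (2.47% and 0%). Histones had 9 higher and 1 lower of 19, RNA helicases 13 and 4 of 49, and genome activators 7 and 3 of 35.

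The ratio of org ran from 4.12 in the egg and 3.56 at 1-cell to 0.22 at 16-cell and -1.79 at 128-cell. Its difference at 128-cell from egg and 1-cell was -5.63, and -4.42 with 16-cell included. BIRC5, the survivin subunit of the chromosomal passenger complex, ran from 3.17 and 2.68 to -0.64 and -2.89. Its difference was -5.81, and -4.62 with 16-cell included. BUB3, of the spindle checkpoint, ran from 4.29 and 3.34 to -1.54 and -2.17. In these genes the change of side had begun by 16-cell, and the ratio at 128-cell was lower still. TOP2A went from 2.15 in the egg to -2.40, kif11, a spindle motor, from 2.4 to -2.33, and ZAR1L from 3.05 to -2.61.

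In the opposite direction, PTBP1, a splicing repressor, had ratios of -0.18 in the egg, -0.23 at 1-cell, 1.66 at 16-cell and 3.03 at 128-cell. Its difference at 128-cell from egg and 1-cell was 3.24, and 2.62 with 16-cell included. ZNF395, a zinc finger gene, had -0.80, -0.79, 1.85 and 2.62. dnajb1b had -0.14 in the egg and 3.01 at 128-cell, and hmgn1a, a nucleosome-binding protein, -1.30 and 2.03. As in the falling genes, most of the distance had been covered by 16-cell for ZNF395 and dnajb1b (2.69). Between egg and 128-cell, 63 of the 14461 genes went from lower to higher past 2-fold and 277 from higher to lower.

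**Figure D3:**
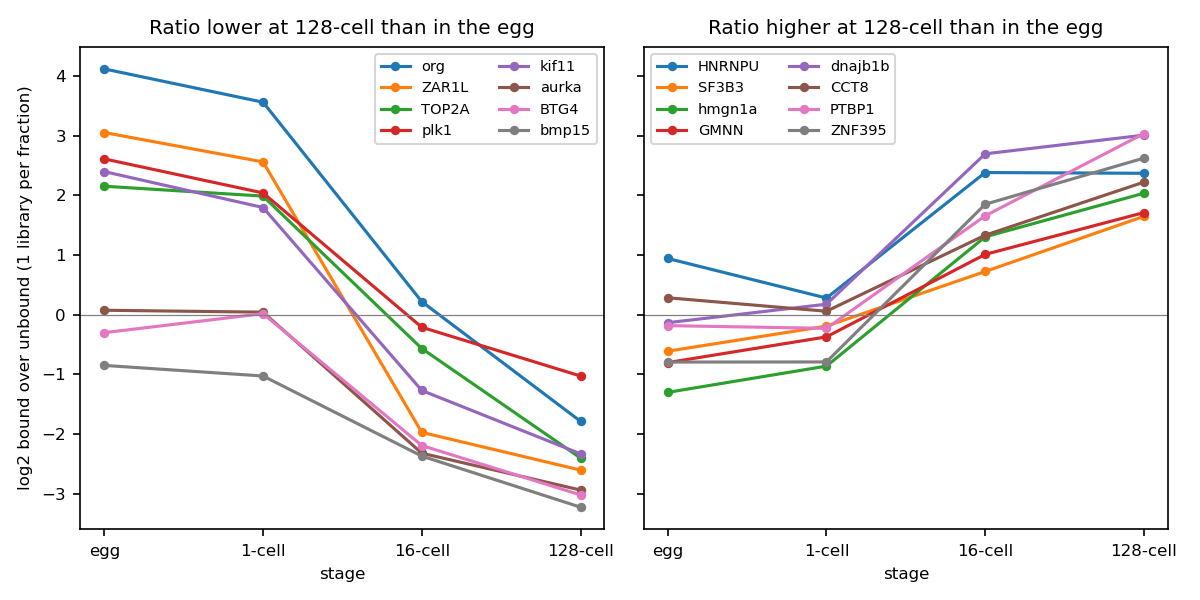
Log2 bound over unbound ratio by stage for 8 genes with a lower and 8 with a higher ratio at 128-cell than in the egg, chosen after their values were seen, 1 library per fraction and stage. Genes that were polysome-rich in the egg such as org end below 0 at 128-cell, and genes such as PTBP1 cross in the other direction.

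The unfractionated level at later stages was measured in libraries that the ratio does not use, although the 128-cell unfractionated library is the common reference. The 1156 genes at least 4-fold higher in the bound fraction had a median log2 change of 0.33 by 3.5 hpf and of 0.60 by 5.3 hpf. The 849 genes at least 4-fold lower had medians of -1.09 and -1.69. The genes within 2-fold, 7625 in number, lay between at -0.23 and -0.45.

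By 5.3 hpf the level was at least 4-fold below that at 128-cell for 3.11% of the most bound class and 40.6% of the least bound class, against 15.3% of all members. A level at least 2-fold above was reached by 35% and 7.89%. Counts of maternal mRNA and of new transcripts are not separated in these libraries. Among the groups, germ plasm mRNAs had a median change of -1.69 and oocyte mRNAs of -1.92 by 5.3 hpf, while SR and hnRNP mRNAs had 1.66 and HMG mRNAs 2.91. Cytosolic ribosomal protein mRNAs, at -1.61 in bound over unbound, had a median change of -0.16 by 3.5 hpf and of 1.23 by 5.3 hpf. Germ plasm mRNAs had a median ratio of 0.39, above the 0.04 of all members, and their change by 5.3 hpf was below the -0.42 of all members. The order of ratios and of levels at 5.3 hpf thus differed for both groups.

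**Figure D4:**
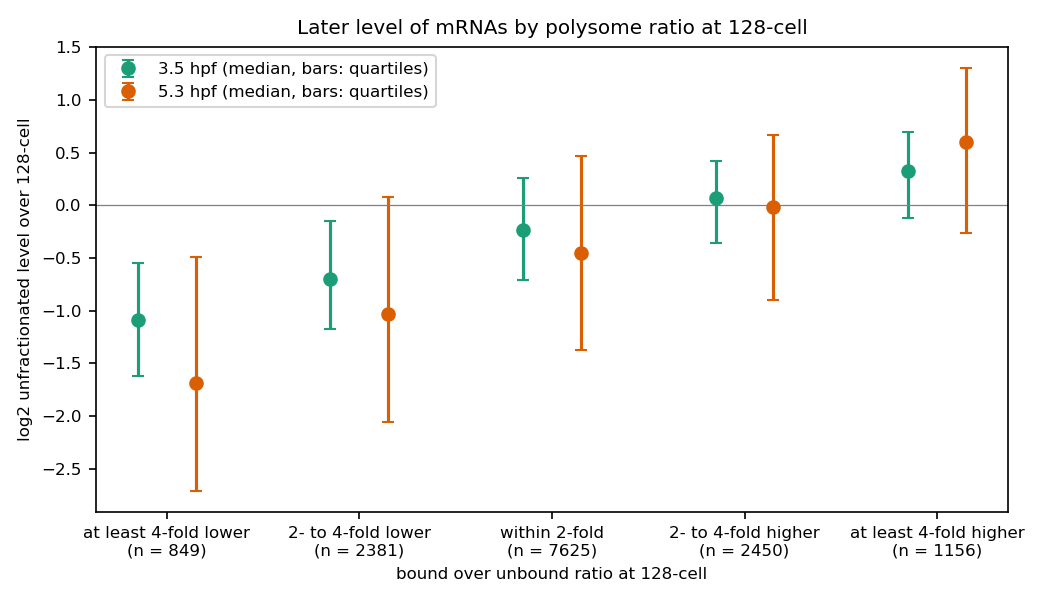
Change of the unfractionated level from 128-cell to 3.5 and 5.3 hpf (log2) by class of the bound over unbound ratio at 128-cell. The medians at 5.3 hpf run from 0.60 in the class at least 4-fold higher to -1.69 in the class at least 4-fold lower.

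The 100 genes just inside the floor of 100 normalized counts had a median of -0.29, with 15 higher and 31 lower, and the 100 just outside it -0.23, with 11 and 18.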

How the data were processed

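Polysome-bound, polysome-unbound and unfractionated RNA of pooled AB zebrafish embryos was sequenced as stranded, ribosomal RNA-depleted libraries, per the labels' protocols. The submitters' processing notes name STAR 2.4.2a, cutadapt 1.9.1, Cufflinks 2.2.1, Salmon 0.6.0, DESeq2 and the build GRCz10. The gene table deposited by the authors holds normalized counts (a signal, not raw counts). The transcript files deposited by the authors hold Salmon's estimated counts and TPM.

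From these, the log2 ratio with a pseudocount of 1 was computed per gene. Intervals used reads recovered from the normalized values. Stage ratios were tested with limma 3.58.1, and edgeR 4.0.16 was run as an alternative on estimated counts rounded to whole numbers. Genes were joined to single transcripts by matching reads within 0.001 log2. Depth over the 18 libraries was 30.7 to 71.6 M reads. Named genes were, per direction, the 12 largest ratios among genes with a symbol, an unfractionated value of at least 1000 and both fractions of at least 10, the extremes and highest levels of each of 36 lists, and the 6 highest values per fraction. The members and lists were chosen with earlier results of these data known. The limma and edgeR fits between stages were also run on simulated data. That run cannot show how the fits behave with the shifts between earlier stages seen in the real ratios. No conclusion is drawn from it. Start-site sequences were not analysed here.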

Additional observations from a re-analysis of the deposited data

Results flagged for a closer look

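The gene ENSDARG00000024870.6, which has no symbol, was the 1 gene whose 128-cell ratio differed from those of egg, 1-cell and 16-cell, by 13.73 ± 0.96 log2 units (SE; limma adjusted p = 0.0167). It had 8713 normalized counts in the bound library and was listed at 0 in the unbound and unfractionated libraries of 128-cell, so it is not among the 14461 genes. Its ratios at egg, 1-cell and 16-cell were -1.57, -1.42 and 1.07. The difference rests on values at 0 in 1 library per fraction.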

How the results depend on the processing

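Each fraction of a stage is 1 library. Differences between pools of embryos and between gradients therefore cannot be told apart from those between fractions or between stages. No pairing by replicate was possible because each group has 1 library and the labels give no replicate numbers. The bound and unbound libraries of a stage are joined in its ratio, and the test between stages used the stage as a block. The ratios depend on scaling: higher genes made up 52.8% of calls as deposited, 25.3% with equal library totals (1853 higher, 5465 lower) and 9.37% with the control-like entries (834 and 8066). With those entries 13 of 17 list medians above 0 fell below it (7 with equal library totals). Among values past 2-fold, the medians of HMG proteins (-0.16) and cathepsins (-0.13), and RPL15 (-0.10), CARS1 (-0.15), PFKP (-0.18) and PFKL (-0.22), changed sign. A floor of 1000, which keeps fewer genes, gave 2465 higher and 1715 lower (59.0% of calls higher). A 4-fold threshold gave 1156 higher and 849 lower (57.7%). Single transcripts, counted in place of genes, gave 5196 and 4881 (51.6%). A bound plus unbound floor of 10 with no floor on the unfractionated value gave 5536 and 5402 (50.6%). The floors and the use of transcripts change how many entries are counted, so these counts are not shares of the 14461 genes. The test between stages gave 1647 higher and 1658 lower genes without 16-cell, and 0 higher with the other 5 stages as reference, with a pseudocount of 10, without a filter or with edgeR. With a 10% margin the unfractionated value was above both fractions for 2014 genes and below both for 1567, and with equal library totals below both for 1411. The causes were not tested.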
